A study of Mus musculus with 14 samples.

Results

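Genes that differ between resting and dividing cells of the adult mouse subventricular zone were compared in cells fresh from the tissue and in culture. In the fresh wildtype library, cells with 3 or more counts over Slc1a3, Slc1a2, Aldoc, Clu and Gja1 and 0 counts over Top2a, Rrm2, Pcna, Mcm6, Dcx and Sp8 were taken as quiescent, which gave 1370 of 2209 cells (62.0%). Cells with 2 or more counts over Top2a, Rrm2, Pcna and Mcm6 and 0 over Dcx and Sp8 were taken as cycling, which gave 138 cells (6.25%). For each gene, the counts per 1e6 counts (CPM) summed over the quiescent cells were divided by those over the cycling cells, and this ratio was set beside that of the culture with bone morphogenetic protein 4 (BMP4, 887 cells) to the culture with epidermal growth factor (EGF, 1410 cells). Of the 13288 genes in the fresh wildtype table, 4745 had 20 or more counts over both kinds of cell. Of these, 9 were marker genes of the rule, 93 were absent from the culture tables and 90 had under 10 culture counts, which left 4553 genes to compare. Quiescent cells hold most of the fresh counts, so a gene that is high in them reaches the minimum more readily than one that is high in cycling cells.

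Stem cells of the subventricular zone lie along the lateral ventricle and give rise to new neurons of the olfactory bulb. Most of them rest outside the cell cycle and carry many genes of astrocytes, while active ones divide and yield transit amplifying cells and neuroblasts. BMP signals hold stem cells at rest and EGF drives division, and BMP4 is a common means of inducing quiescence in a dish.

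The comparison used 3 of the 14 samples of the series: wildtype cells freshly isolated and left untreated, wildtype cells cultured with BMP4 for 3 days, and wildtype cells cultured with EGF for 3 days. A second fresh, untreated library from mice labelled APLP1-/- was used as a further set of values for the same ratio, with 894 quiescent and 179 cycling of 1879 cells. Aplp1 encodes a relative of the amyloid precursor protein. All were 3′ single-cell libraries of cells from the subventricular zone of adult mice, whose sex, exact age and strain the sources used here do not give. Cells of both fresh libraries were tagged by antibodies so that single mice can be told apart, with 3 tags in each, and 53, 107 and 196 of the wildtype quiescent cells could be given a tag. Cycling cells with a tag were under 10 per mouse, so values by mouse are given for quiescent cells only. The sources used here do not give the number of animals behind the cultures. Each condition is 1 library, so the ratios have no replicate check. The intervals in brackets are exact 95% intervals of a ratio of counts and cover counting error only.

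The fresh cells were shallow. Quiescent wildtype cells held 550179 counts with a median of 320.5 per cell, cycling cells 180786 counts with a median of 1074, and the BMP4 and EGF libraries 17313999 and 33603623 counts. At the lower edge of the rule, 65 cells had exactly 3 quiescent marker counts and 54 further cells had 2, while 50 cells had exactly 2 cycling marker counts and 86 had 1. Of the 138 cycling cells, 61 also carried 3 or more counts of the quiescent markers, and at the edge of the gene filter 174 genes had exactly 20 counts and 162 had 19. Fresh and culture tables list different genes and were normalized separately, so CPM levels are not compared across them: cytosolic ribosomal protein genes summed to 2136 CPM in fresh quiescent and 5504 CPM in fresh cycling cells, and to 155650.0 CPM with BMP4 against 274274 CPM with EGF. The fresh libraries shared 13 cell barcodes with each other, and other pairs of libraries 1 to 5.

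The markers of the rule do not separate quiescent stem cells from astrocytes, so the quiescent class can hold both. It can also hold dividing cells whose few counts missed the 4 cycle genes. Quiescent cells had a median of 320.5 counts and cycling cells of 1074. Nor do the markers separate dividing stem cells from later progenitors. A list of neurogenic progenitor genes summed to 6256 CPM in cycling and 1390 CPM in quiescent wildtype cells. Rest, depth and lineage stage cannot be fully told apart in the fresh ratio. Among the rule's own genes, Slc1a2, a glutamate transporter of astroglia, stood at 10055 CPM in fresh quiescent and 1283 CPM in fresh cycling cells, and at 731 CPM with BMP4 against 25.1 CPM with EGF. Top2a, the topoisomerase of dividing cells, stood at 0 and 929 CPM in the fresh classes, as the rule sets, and at 20.6 and 189 CPM in the BMP4 and EGF cultures. Markers of other cell types were low but higher in the quiescent class. The 15 microglia markers summed to 56.3 CPM in fresh quiescent and 16.6 CPM in fresh cycling cells, with 0 counts of C1qa and C1qb in quiescent cells, and to 87.5 and 85.9 CPM in those of the library labelled APLP1-/-. The 12 ependymal markers summed to 159.9 and 5.53 CPM, and Rarres2 alone gave 81 of their 88 counts in quiescent cells. Oligodendrocyte markers summed to 129 and 27.7 CPM with Mog, Mag and Sox10 at 0, mature neuron markers to 165 and 83.0 CPM, mural markers to 32.7 and 5.53 CPM with Rgs5 and Vtn at 0, and endothelial markers to 10.9 and 0 CPM with Cldn5 and Pecam1 at 0. Genes that every cell uses were also at or near 0 in this table: Rps6 had 0 counts in quiescent and 3 in cycling cells, Fau 0 and 1 and Gapdh 6 and 0, so a 0 here does not show that a gene or a cell type is missing. Without cells that held any count of these markers, 1228 quiescent and 118 cycling cells were left, and the correlation described next was 0.497, the same to 3 digits.

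Across genes, the fresh ratio and the culture ratio ran in the same direction on the whole. Pearson's r between the log2 ratios was 0.497 over 4553 genes (Spearman's rho 0.493), a description across genes of the same 3 libraries and without a p-value, since genes are not replicates. On the fresh side 1479 genes (32.5%) were 2-fold or more higher in quiescent cells and 873 (19.2%) 2-fold or more lower, counts that the choice of cells on this contrast bears on directly. In culture, 938 genes (20.6%) stood 2-fold or more above EGF in the BMP4 library and 485 (10.7%) 2-fold or more below. Both ratios were 2-fold or more higher for 590 genes (13%) and lower for 268 (5.89%). They were past 2-fold in opposite directions for 62 genes that were higher in fresh quiescent cells and lower with BMP4 (1.36%), and for 56 that were lower in fresh quiescent cells and higher with BMP4 (1.23%). TMM factors moved the culture log2 ratios by -0.20 and the fresh ones by 0.08. The share of higher genes among those past 2-fold in culture was 65.9% with CPM and 53.5% with TMM, while in fresh cells it was 62.9% and 65.8%.

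**Figure D1:**
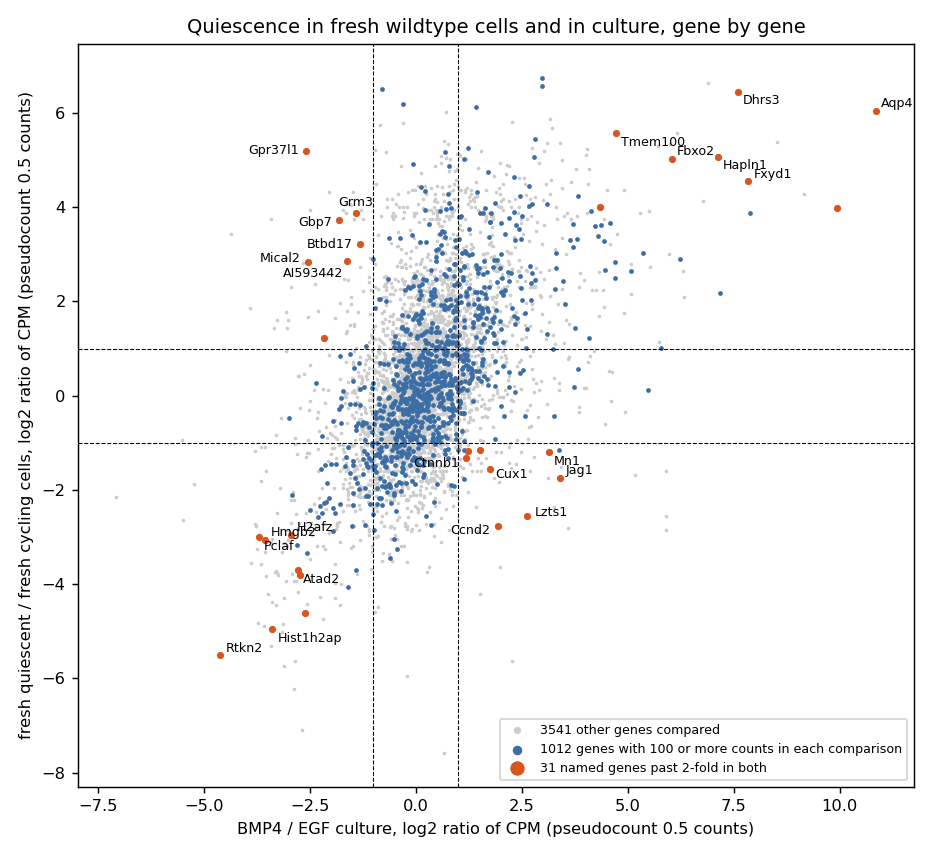
Each point is 1 of 4553 genes, with the BMP4 to EGF log2 ratio of CPM on the x axis and the fresh quiescent to cycling log2 ratio on the y axis; blue points have 100 or more counts in each comparison, orange points are the 31 named genes past 2-fold in both, and dashed lines mark 2-fold. Most points past 2-fold in both lie in the upper right (590 genes) or lower left (268), with 62 in the upper left and 56 in the lower right.

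The well-counted genes were also taken alone. Among the 1012 genes with 100 or more counts in each comparison, 330 (32.6%) were 2-fold or more higher in fresh quiescent cells and 184 (18.2%) lower, and 257 (25.4%) were higher with BMP4 and 97 (9.58%) lower. Of the 330 genes higher in fresh quiescent cells, 173 (52.4%) were also past 2-fold higher with BMP4, which is 17.1% of the well-counted genes. A further 148 (44.8%) were between the 2-fold bounds in culture, and 9 (2.73%), or 0.889% of the well-counted genes, were past 2-fold lower. These 173 made up 67.3% of the 257 genes higher with BMP4. Of the 184 genes lower in fresh quiescent cells, 58 (31.5%) were past 2-fold lower with BMP4, or 5.73% of the well-counted genes. Of the rest, 115 (62.5%) were in between and 11 (5.98%), or 1.09% of the well-counted genes, were past 2-fold higher. The 58 made up 59.8% of the 97 genes lower with BMP4. Among these 1012 genes, most that were past 2-fold in culture were past 2-fold in the same direction between the fresh classes. The count minimum bears on this, since a gene high in quiescent cells passes it more readily. It does not extend to culture genes at large. Of the 50 genes with the largest BMP4 ratios 19 had enough fresh counts to compare, and of the 50 toward EGF 7.

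The second fresh library gave the ratio once more in other animals. The log2 ratios of the wildtype library and of the library labelled APLP1-/- correlated across genes at r = 0.763 (3800 genes with 20 or more counts in both), and at 0.648, 0.778, 0.876, 0.917 and 0.953 for genes of 20 to 49, 50 to 99, 100 to 199, 200 to 499 and 500 or more wildtype counts. Over the same steps the correlation of the wildtype fresh ratio with culture was 0.444, 0.508, 0.585, 0.615 and 0.578. The lower steps hold more genes here, 2466 against 1725 at 20 to 49 counts and 1051 against 1039 at 50 to 99. Over the same 3800 genes the correlation with culture was 0.529. Between the fresh libraries the correlation was higher at each step of depth. With culture Pearson's r stayed under 0.62 in every class. Spearman's rho with culture was 0.569, 0.625 and 0.660 at 100 to 199, 200 to 499 and 500 or more counts. Cells of both fresh libraries were chosen by the same marker rule, which bears on the correlation between them. Of the 173 well-counted genes higher in both, 165 were past 2-fold the same way in the second fresh library. The same held for 119 of the 148 genes higher in fresh quiescent cells and within 2-fold in culture, for 9 of the 9 lower with BMP4, and for 50 of the 58 lower in both. It also held for 78 of the 115 lower in fresh quiescent cells and within 2-fold in culture, and for 7 of the 11 higher with BMP4. None of these genes (0) was past 2-fold the other way. Genotype and library cannot be told apart in this second set.

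**Figure D2:**
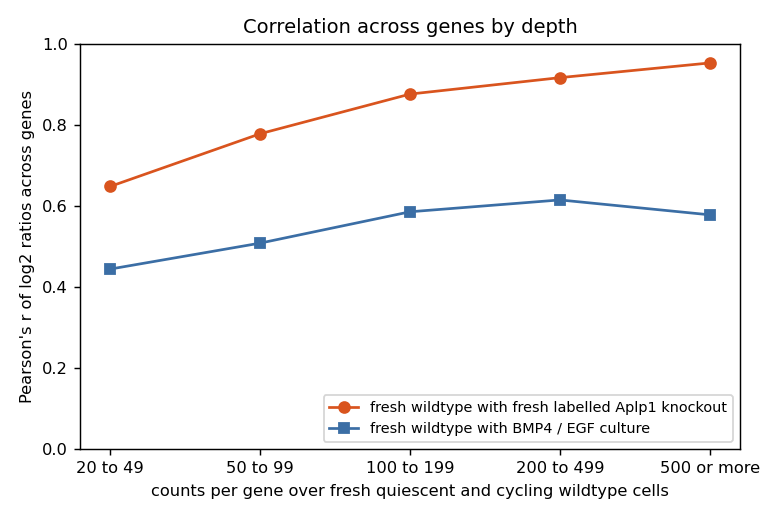
Pearson's r across genes of the fresh wildtype log2 ratio with that of the fresh library labelled APLP1-/- (orange circles) and with the BMP4 to EGF culture log2 ratio (blue squares), by the number of fresh wildtype counts per gene. The orange line climbs to 0.953 at 500 or more counts, and the blue line reaches 0.615 at 200 to 499 counts.

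Genes of resting and astroglial cells were higher in both settings. Of 35 compared genes of the quiescence and astrocyte list, 34 were 2-fold or more higher in fresh quiescent cells and 0 lower. With BMP4 26 were higher and 1 lower. All genes gave 32.5% higher and 19.2% lower in fresh quiescent cells, and 20.6% and 10.7% with BMP4. The median log2 ratios were 3.63 in fresh cells and 2.21 in culture, beside 0.26 and 0.17 over all genes. With genes at 0 counts on one side put at their bound against 3 counts, the fresh median was 3.28. The list overlaps the genes that travel with the rule's markers, so its fresh count is set by the choice of cells. Aqp4, the water channel of astroglial endfeet (chromosome 18, 15389394 to 15410982 in GRCm38.p6), stood at 545 CPM in quiescent and 5.53 CPM in cycling wildtype cells, at 382 and 14.3 CPM in the library labelled APLP1-/-, and at 794 CPM with BMP4 against 0.417 CPM with EGF. In the quiescent cells of the 3 tagged wildtype mice it stood at 426, 544 and 369 CPM. It was high in both resting states and near 0 in both dividing ones, with a fresh ratio of 98.6-fold (17.6 to 3906) that rests on 1 cycling count and a culture ratio of 1906-fold (1136 to 3488). Apoe, the lipid carrier secreted by astroglia, stood at 5799.9 CPM in quiescent and 454 CPM in cycling cells of the wildtype library, and at 6394 and 276 CPM in those of the library labelled APLP1-/-. The BMP4 culture held 869.5 CPM of Apoe and the EGF culture 36.6 CPM. Its ratios were 12.8-fold (10.3 to 16.1) in fresh cells and 23.8-fold (22.4 to 25.2) in culture, and its quiescent levels in the 3 wildtype mice were 5865, 6460.5 and 7154 CPM. Gfap, the intermediate filament of astrocytes, had 29 counts in fresh quiescent and 0 in fresh cycling cells, at least 3.18-fold higher, and a culture log2 ratio of 9.15. Other members differed in fresh cells and were within 2-fold in culture. Acsl6, which activates long fatty acids, had a fresh ratio of 44.9-fold (12.3 to 372) and a culture ratio of 1.60-fold (1.39 to 1.85). Log2 ratios of Plpp3, a lipid phosphatase, were 4.08 in fresh cells and 0.77 in culture, those of the neurotensin receptor gene Ntsr2 2.94 and 0.47, and those of Fjx1 3.94 and 0.22. Thrsp, a regulator of lipid synthesis, was the 1 member lower with BMP4 (-1.41, against -0.72 in fresh cells).

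Transporters and channels that astroglia use to clear potassium, water and transmitters were nearly all higher in fresh quiescent cells. There 20 of 21 were past 2-fold higher and 0 lower, beside 32.5% and 19.2% of all genes. The choice of cells bears on this fresh count too, since the quiescent markers include Slc1a2, a transporter gene of astroglia. In culture 12 were higher and 3 lower, beside 20.6% and 10.7% of all genes. The medians were 3.99 and 2.34, and with genes at 0 counts at their bound the fresh median was 3.62. Atp1b2, a beta subunit of the sodium pump, stood at 1278 CPM in quiescent and 77.4 CPM in cycling cells of the wildtype library, and at 1079 and 39.4 CPM in those of the library labelled APLP1-/-. In culture Atp1b2 was at 511 CPM with BMP4, against 25.3 CPM with EGF. Its ratios were 16.5-fold (9.77 to 30.3) in fresh cells and 20.2-fold (18.8 to 21.7) in culture, and those of Fxyd1, a small regulator of the pump, 26.3-fold (10.2 to 97.1) and 286-fold (78.5 to 2375). The potassium channel gene Kcnk1 and the scaffold gene Slc9a3r1, which anchors transporters at the membrane, stood apart from these. Kcnk1 had 231 quiescent counts and 2 cycling counts, a ratio of 38.0-fold (10.4 to 315), and 22.5 CPM with BMP4 against 23.5 CPM with EGF, a ratio of 0.957 (0.845 to 1.08). Slc9a3r1 had 139 quiescent and 0 cycling counts, at least 15.2-fold higher, and was 1.73-fold (1.55 to 1.94) lower with BMP4. Slc6a11, which takes up GABA, had log2 ratios of 2.90 in fresh cells and -1.01 in culture. The inward rectifier gene Kcnj16 had 23 quiescent and 0 cycling counts and a culture log2 ratio of -2.49. Its fresh log2 ratio of 3.95 rests on the pseudocount. Markers of the ciliated ependymal cells that line the ventricle were higher in the same class, at 159.9 CPM in quiescent and 5.53 CPM in cycling cells, and their part in these values was not tested.

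Lipid and lysosome genes were higher in both resting states. Of 19 genes of fatty acid use and lipid droplets, 14 were higher in fresh quiescent cells and 10 with BMP4, with 0 lower in each (median log2 ratios 2.21 and 1.01; 1.76 in fresh cells with genes at 0 at their bound). Of 8 genes of lipid export 7 and 5 were higher with 0 lower (medians 2.48 and 2.11). The shares of all genes were 32.5% higher and 19.2% lower in fresh quiescent cells, 20.6% and 10.7% with BMP4, and 13% higher in both. Acsl3, which loads fatty acids into droplets, had ratios of 10.7-fold (5.11 to 26.9) in fresh cells and 2.02-fold (1.86 to 2.18) in culture, and the cholesterol exporter gene Abca1 6.90-fold (2.86 to 21.7) and 33.9-fold (29.4 to 39.2). Dbi, which binds fatty acyl-CoA, differed less, at 2.17-fold (1.73 to 2.76) and 1.81-fold (1.79 to 1.83), and Fabp7, the fatty acid binding protein of radial glia, did not reach 2-fold in either, at 1.14 (0.884 to 1.47) and 0.849 (0.840 to 0.858). Of 28 lysosome genes, 18 were higher and 1 lower in fresh quiescent cells, and 17 were higher and 0 lower with BMP4 (medians 1.74 and 1.27), with 13 past 2-fold higher in both. Psap, the precursor of proteins that help break down sphingolipids, stood at 483 CPM in quiescent and 16.6 CPM in cycling cells of the wildtype library, and at 418 and 43.0 CPM in those of the library labelled APLP1-/-. Culture with BMP4 gave 582 CPM and culture with EGF 117 CPM. Its ratios were 29.1-fold (9.86 to 142) in fresh cells and 4.95-fold (4.77 to 5.14) in culture. Tpp1, a lysosomal peptidase, had ratios of 14.0-fold (6.33 to 38.4) and 3.38-fold (3.14 to 3.65), and the protease gene Ctsb 3.51-fold (1.99 to 6.76) and 5.96-fold (5.57 to 6.37). Microglia, which are rich in lysosomes, were marked by 56.3 CPM of their 15 markers in fresh quiescent and 16.6 CPM in fresh cycling cells, and by 4.85 CPM with BMP4 against 5.18 CPM with EGF. Their part in the fresh values was not tested.

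**Figure D3:**
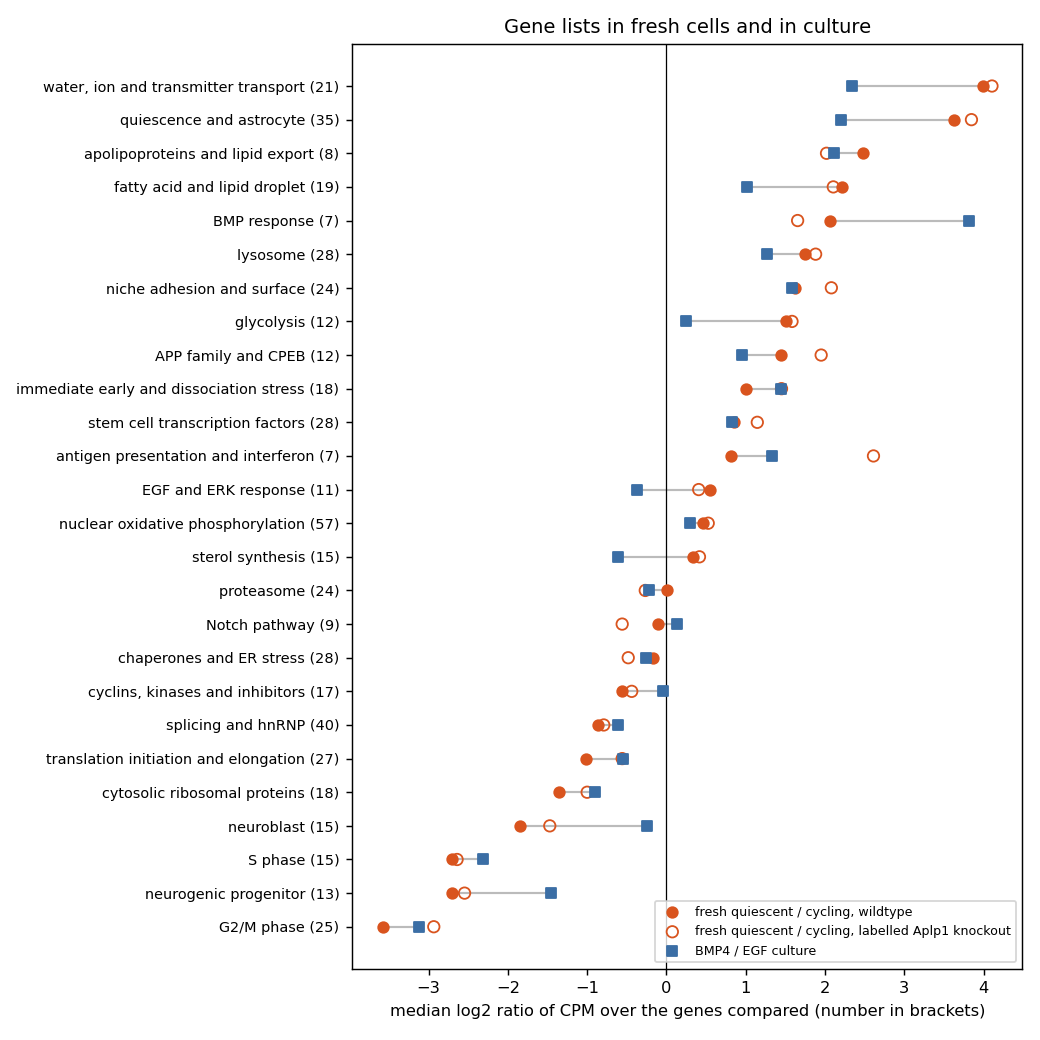
Median log2 ratio of CPM over the compared genes of each of 26 lists, with the number of genes in brackets, for fresh quiescent to cycling wildtype cells (filled orange), the same in the fresh library labelled APLP1-/- (open orange) and BMP4 to EGF culture (blue squares); grey lines join the wildtype fresh and culture medians. Both medians are far above 0 for transport (3.99 and 2.34) and far below 0 for G2/M genes (-3.58 and -3.12), and they differ in sign for the EGF and ERK response (0.55 and -0.38), whose culture sign rests on the genes compared, and for sterol synthesis (0.33 and -0.61). They also differ in sign, near 0, for the proteasome list and for the Notch list, whose culture median is -0.06 with TMM factors.

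Most compared BMP target genes were higher in the resting state in both settings. Of 7 compared genes, 5 were higher and 1 lower in fresh quiescent cells and 7 were higher with BMP4, with medians of 2.06 and 3.81. For all genes the shares were 32.5% higher and 19.2% lower in fresh quiescent cells, and 20.6% and 10.7% with BMP4. With the genes that had 20 or more counts in the library labelled APLP1-/- the medians were 2.94 there and 2.38 in culture, and with those that kept 20 counts among cells of 300 to 1500 counts 2.19 and 2.38, so which median is the larger rests on the genes compared. Id2, an inhibitor of differentiation factors, stood at 3704 CPM in quiescent and 194 CPM in cycling cells of the wildtype library, and at 4814 and 186 CPM in those of the library labelled APLP1-/-. With BMP4 it stood at 1299 CPM, against 92.4 CPM with EGF. The ratios of Id2 were 19.1-fold (13.7 to 27.5) and 14.1-fold (13.5 to 14.6). In the quiescent cells of the 3 wildtype mice it stood at 5109, 2224 and 3632 CPM. Id4, a relative that keeps stem cells at rest, stood at 691 CPM in fresh quiescent and 149 CPM in fresh cycling cells, a ratio of 4.62-fold (3.13 to 7.11), and at 166 CPM with BMP4 against 1.13 CPM with EGF, a ratio of 147-fold (107 to 208). The receptor gene Bmpr1a had ratios of 3.29-fold (1.77 to 6.77) and 5.20-fold (4.91 to 5.50). Smad7, a feedback inhibitor of the pathway, was the 1 member lower in fresh quiescent cells, with 13 counts in each class and a log2 ratio of -1.61, and 5.89 in culture, and Id1 had 0.94 on 20 and 3 counts and 4.21. Immediate early genes, which answer stimuli and tissue dissociation within minutes, were higher for 9 of 18 and lower for 1 in fresh quiescent cells, and higher for 11 and lower for 0 with BMP4 (medians 1.01 and 1.44). Fos stood at 922 and 808 CPM in fresh quiescent and cycling wildtype cells, at 2294 and 659 CPM in the library labelled APLP1-/-, and at 613 and 46.3 CPM in the BMP4 and EGF cultures, so the fresh libraries differed for it, with log2 ratios of 0.19 and 1.80. Egr1 was 3.71-fold (3.05 to 4.51) lower in fresh quiescent cells and 1.77-fold (1.70 to 1.85) higher with BMP4.

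Cell cycle genes beyond the rule's own 4 were lower in both resting states. Of 15 compared S phase genes, 11 were 2-fold or more lower in fresh quiescent cells and 15 with BMP4, with 0 higher in each (medians -2.71 and -2.31). Of 25 G2/M genes 22 and 23 were lower and 1 and 1 higher (medians -3.58 and -3.12). Lower genes made up 19.2% of all genes in fresh quiescent cells and 10.7% with BMP4, and higher ones 32.5% and 20.6%. The fresh counts follow from a rule that picked cycling cells by such genes. That rule also bears on which members had enough fresh counts, and so on the culture counts. Only 15 of 41 listed S phase and 25 of 47 listed G2/M genes were compared. Uhrf1, which maintains DNA methylation at replication forks, had log2 ratios of -4.82 in fresh cells and -3.71 in culture, the cyclin gene Ccna2 -4.20 and -3.48, and the spindle gene Nusap1 -4.85 and -3.14. Pttg1, the securin gene, was the 1 member higher in both, at 1.26 on 25 and 3 counts and at 1.03. Spc24, a kinetochore gene, was 7.95-fold (6.63 to 9.61) lower with BMP4 and 1.38-fold (0.950 to 1.99) lower in fresh quiescent cells. The well-counted genes of both lists and beyond with the largest shared differences toward dividing cells were Rtkn2, Hist1h2ap, Hmgb2, Pclaf, H2afz, Atad2, Lbr and Gas2l3. Rtkn2, the gene of rhotekin 2, stood at 10.9 CPM in quiescent and 537 CPM in cycling cells of the wildtype library, and at 21.9 and 766 CPM in those of the library labelled APLP1-/-. The BMP4 culture held 0.866 CPM of Rtkn2 and the EGF culture 21.9 CPM. Rtkn2 was 49.2-fold (21.8 to 137) and 25.2-fold (15.2 to 45.3) lower. Hmgb2, a chromatin protein of dividing cells, was 8.41-fold (6.07 to 11.8) lower in fresh quiescent cells and 11.8-fold (11.2 to 12.3) lower with BMP4, and H2afz, a variant histone gene, 7.77-fold (5.82 to 10.5) and 7.68-fold (7.50 to 7.86) lower. Gas2l3, a cytoskeletal linker of cytokinesis, differed more in fresh cells, at 24.9-fold (16.5 to 39.0) and 6.18-fold (5.02 to 7.69) lower, as did the lamin B receptor gene Lbr, at 14.1-fold (10.3 to 19.5) and 6.70-fold (5.42 to 8.37). Counts of Hist1h2ap, a histone gene, correlated above 0.8 across fresh cells with those of its relative Hist1h2ao. Whether reads are shared between these copies was not tested.

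Genes of later neurogenic stages were lower in fresh quiescent cells and mixed with BMP4. Of 13 neurogenic progenitor genes 11 were lower and 1 higher in fresh cells, and 8 were lower and 2 higher in culture (medians -2.71 and -1.46). Of 15 neuroblast genes 10 were lower and 1 higher in fresh cells, and 5 were lower and 3 higher in culture (medians -1.85 and -0.24). Beside these, 19.2% of all genes were lower and 32.5% higher in fresh quiescent cells, and 10.7% and 20.6% with BMP4. Insm1, a transcription factor of intermediate progenitors, stood at 27.3 CPM in quiescent and 470.2 CPM in cycling cells of the wildtype library, and at 7.29 and 311 CPM in those of the library labelled APLP1-/-. In culture Insm1 was at 4.74 CPM with BMP4, against 14.4 CPM with EGF. It was 17.2-fold (9.89 to 32.2) and 3.04-fold (2.40 to 3.89) lower. Sox4, a factor of early neuronal commitment, was 5.44-fold (4.72 to 6.29) lower in fresh quiescent cells and 1.38-fold (1.33 to 1.44) lower with BMP4, and the tubulin gene Tuba1a 4.04-fold (3.42 to 4.78) and 1.27-fold (1.24 to 1.30) lower. The homeobox genes Dlx2 and Dlx1, which specify interneurons, differed between the settings. Dlx2 had 4 quiescent and 73 cycling counts (log2 ratio -5.64) and a culture log2 ratio of 2.26, and Dlx1 had 0 and 31 counts, at least 31.4-fold lower, and a culture log2 ratio of 0.66.

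The medians of protein synthesis and RNA splicing genes lay below 0 in both resting states, while most members were within 2-fold with BMP4. Of 18 compared ribosomal protein genes, 14 were 2-fold or more lower in fresh quiescent cells and 7 with BMP4, with 0 higher in each (medians -1.36 and -0.90). Of 27 translation factors 14 and 7 were lower and 2 and 1 higher (medians -1.01 and -0.55). Of 40 splicing genes 17 and 15 were lower and 2 and 0 higher (medians -0.87 and -0.61). These are 18 of 79 listed ribosomal protein genes, since the others had too few fresh counts or are not in the fresh table, and reads of their many pseudogenes make single members uncertain. Eif4a1, the helicase that opens mRNA for initiation, stood at 523 CPM in quiescent and 2583 CPM in cycling cells of the wildtype library, and at 591 and 2896 CPM in those of the library labelled APLP1-/-. Culture with BMP4 gave 262 CPM and culture with EGF 551 CPM. Eif4a1 was 4.93-fold (4.25 to 5.74) lower in fresh quiescent cells and 2.10-fold (2.03 to 2.17) lower with BMP4. Rpl32 was 2.50-fold (1.65 to 3.76) and 2.14-fold (2.12 to 2.17) lower. The splicing genes were not alike. Hnrnpa1, an abundant RNA packaging protein gene, had log2 ratios of -2.87 and -1.96, Hnrnpa0 of -1.88 and -0.03, and Srsf2, a splicing activator gene, of 0.59 and -1.46, so Hnrnpa0 differed in fresh cells and Srsf2 in culture. Of the other gene lists of this kind, chaperones and ER stress genes were higher for 6 of 28 and lower for 5 in fresh cells. In culture 3 were higher and 3 lower (medians -0.17 and -0.26). Over all genes 32.5% were higher and 19.2% lower in fresh quiescent cells, and 20.6% and 10.7% with BMP4. Proteasome genes lay near 0, with 3 of 24 higher and 1 lower in fresh cells, 0 past 2-fold either way in culture, and medians of 0.01 and -0.22.

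In fresh quiescent cells, genes of the EGF and ERK response and of sterol synthesis were higher about as often as all genes (32.5%), and some members of each were lower with BMP4 (10.7% of all genes). Of 11 genes of the EGF and ERK response, 3 were higher and 2 lower in fresh quiescent cells, and 0 were higher and 4 lower with BMP4 (medians 0.55 and -0.38). In the library labelled APLP1-/-, with the genes that had 20 or more counts there, the medians were 0.29 and 0.14, and with the genes that kept 20 counts among cells of 300 to 1500 counts the culture median was 0.24, so its sign rests on which genes are compared. Egfr, the EGF receptor gene, stood at 182 CPM in quiescent and 326 CPM in cycling cells of the wildtype library, and at 165 and 301 CPM in those of the library labelled APLP1-/-. With BMP4 it stood at 16.9 CPM, against 78.1 CPM with EGF. Egfr was 1.80-fold (1.28 to 2.50) lower in fresh quiescent cells and 4.63-fold (4.10 to 5.24) lower with BMP4. Spry2, a feedback inhibitor of the pathway, was nearly level in fresh cells, at 7319 CPM in quiescent and 6085 CPM in cycling cells, and had a culture ratio of 1.72-fold (1.66 to 1.78). The growth gene Myc had 23 quiescent and 0 cycling counts, at least 2.52-fold higher, and a culture log2 ratio of -1.72, and Phlda1 had 27 and 1 counts and a culture log2 ratio of -2.10. Sterol synthesis genes were higher for 5 of 15 and lower for 1 in fresh quiescent cells, and higher for 0 and lower for 4 with BMP4 (medians 0.33 and -0.61). Msmo1, a sterol oxidase gene, had a fresh ratio of 6.02-fold (2.68 to 16.8) and was 1.59-fold (1.49 to 1.68) lower with BMP4.

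Glycolysis genes were mostly higher in fresh quiescent cells and mixed with BMP4. Of 12 glycolysis genes, 9 were higher and 1 lower in fresh quiescent cells, and 2 were higher and 2 lower with BMP4 (medians 1.50 and 0.25; with TMM factors the culture median was 0.05). Aldoa, which splits fructose bisphosphate, stood at 324 CPM in quiescent and 27.7 CPM in cycling cells of the wildtype library, and at 255 and 25.1 CPM in those of the library labelled APLP1-/-. The BMP4 culture held 565 CPM of Aldoa and the EGF culture 601 CPM. Its fresh ratio was 11.7-fold (4.92 to 36.5) and its culture ratio 0.940 (0.918 to 0.963), so it differed in fresh cells and hardly in culture. The glucose transporter gene Slc2a1 had 44 quiescent and 0 cycling counts, at least 4.82-fold higher, and a culture log2 ratio of 0.46, and Tpi1 had log2 ratios of 2.27 and -0.88. Pfkm and Ldhb were higher in both, with log2 ratios of 3.50 and 2.82 for Pfkm and of 1.72 and 1.40 for Ldhb, which turns lactate into pyruvate. Of 57 nuclear genes of oxidative phosphorylation, 13 were higher and 2 lower in fresh quiescent cells, beside 32.5% and 19.2% of all genes. With BMP4 1 was higher and 0 lower, beside 20.6% and 10.7% of all genes. The oxidative phosphorylation list had medians of 0.46 and 0.30. Among cells of 300 to 1500 counts, 750 quiescent and 91 cycling, with medians of 448.5 and 888 counts per cell, its fresh median was -0.26, while that of glycolysis was 1.14.

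Among the cyclins and Notch genes, Ccnd2, Jag1 and Hes5 were past 2-fold in opposite directions in the settings. Of 17 cyclins, kinases and inhibitors, 2 were higher and 7 lower in fresh quiescent cells and 4 higher and 3 lower with BMP4 (medians -0.57 and -0.05; the culture median is 0.03 with CPM of the shared genes). Ccnd2, a D-type cyclin of progenitors (chromosome 6, 127125162 to 127152188), stood at 482 CPM in quiescent and 3297 CPM in cycling cells of the wildtype library, and at 622 and 3591 CPM in those of the library labelled APLP1-/-. In culture Ccnd2 was at 4307 CPM with BMP4, against 1133 CPM with EGF. In all fresh values cycling cells were the higher, and in culture BMP4 was: it was 6.84-fold (5.91 to 7.94) lower in fresh quiescent cells and 3.80-fold (3.76 to 3.85) higher with BMP4. Quiescent cells of the 3 wildtype mice held 189, 308 and 355 CPM. Its relative Ccnd1 was lower in both resting states, with log2 ratios of -1.87 in fresh cells, on 19 and 23 counts, and -5.23 in culture. Among the partner kinases, Cdk6 was 9.57-fold (8.40 to 10.9) lower in fresh quiescent cells and 1.37-fold (1.21 to 1.55) lower with BMP4, and Cdk4 was 2.72-fold (2.11 to 3.51) and 4.01-fold (3.85 to 4.18) lower. The inhibitor gene Cdkn1b, on 560 quiescent and 341 cycling counts, had log2 ratios of -0.89 and 0.40. Of 9 Notch pathway genes, 3 were higher and 3 lower in fresh quiescent cells and 4 were higher and 0 lower with BMP4. Their medians were -0.10 and 0.13, and the culture median is -0.06 with TMM factors. Among all genes, 32.5% were higher and 19.2% lower in fresh quiescent cells, and 20.6% and 10.7% with BMP4. The ligand gene Jag1 (chromosome 2, 137081451 to 137116520) stood at 536 CPM in quiescent and 1798 CPM in cycling cells of the wildtype library, and at 826 and 1786 CPM in those of the library labelled APLP1-/-. Culture with BMP4 gave 164 CPM and culture with EGF 15.5 CPM. Jag1 was 3.35-fold (2.85 to 3.94) lower in fresh quiescent cells and 10.6-fold (9.61 to 11.6) higher with BMP4. The target gene Hes5 was 2.23-fold (1.81 to 2.74) lower in fresh quiescent cells and 10.4-fold (9.66 to 11.3) higher with BMP4. The receptor gene Notch2 went the other way in fresh cells, at 5805 CPM in quiescent and 2163 CPM in cycling cells, a ratio of 2.68-fold (2.42 to 2.99), and was 1.16-fold (1.04 to 1.30) lower with BMP4, while Notch1 had log2 ratios of -0.10 and 1.35. Lfng, which modifies Notch receptors with sugar, had ratios of 11.4-fold (4.36 to 42.5) in fresh cells and 0.772 (0.721 to 0.827) in culture.

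The well-counted genes furthest past 2-fold higher in both were Dhrs3, Aqp4, Hapln1, Fbxo2, Tmem100, Fxyd1, Atp1b2 and Fam107a. Dhrs3, which reduces retinal, had 133 quiescent and 0 cycling counts, at least 14.6-fold higher, and stood at 14.3 CPM with BMP4 against 0.0595 CPM with EGF, on 248 and 2 counts. Fam107a, an actin-associated gene of radial glia, stood at 479.8 CPM in quiescent and 27.7 CPM in cycling cells of the wildtype library, and at 583 and 10.7 CPM in those of the library labelled APLP1-/-. With BMP4 it stood at 44.0 CPM, against 0.0298 CPM with EGF. The ratios of Fam107a were 17.3-fold (7.34 to 53.9) and 1477-fold (264 to 58413). Hapln1, which links proteoglycans to hyaluronan in the matrix, had ratios of 50.3-fold (8.89 to 1999) in fresh cells and 208-fold (36.5 to 8278) in culture. Fbxo2, a ubiquitin ligase gene, had 49.0-fold (8.65 to 1947) and 65.8-fold (55.5 to 78.6), and Tmem100, a membrane protein gene, 71.0-fold (12.6 to 2816) and 26.3-fold (21.7 to 32.1). All 8 were 2-fold or more higher in quiescent cells of the second fresh library too. The wide intervals come from 0 to a few counts in the dividing cells. Of 7 genes of antigen presentation and the interferon response, 2 were higher and 0 lower in fresh quiescent cells, beside 32.5% and 19.2% of all genes. With BMP4 4 were higher and 0 lower, beside 20.6% and 10.7% of all genes. The medians were 0.82 in fresh cells and 1.33 in culture. Over the same 7 genes the median in the library labelled APLP1-/- was 2.61. With the genes that met the fresh count minimum in that library it was 0.20, beside 1.15 in culture. The size of this median therefore rests on which genes are compared.

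Besides Ccnd2 and Jag1, the well-counted genes lower in fresh quiescent cells and higher with BMP4 that stood out by size were Lzts1, Cux1, Ctnnb1, Mn1, Jmy and Nfix. Of all genes compared, 1.23% lay in this class. Lzts1, a leucine zipper protein gene (chromosome 8, 69132659 to 69184249), stood at 218 CPM in quiescent and 1283 CPM in cycling cells of the wildtype library, and at 221 and 899 CPM in those of the library labelled APLP1-/-. The BMP4 culture held 11.3 CPM of Lzts1 and the EGF culture 1.82 CPM. It was 5.88-fold (4.70 to 7.40) lower in fresh quiescent cells and 6.20-fold (4.63 to 8.41) higher with BMP4. Mn1, a transcription cofactor gene, was 2.29-fold (1.90 to 2.74) lower in fresh quiescent cells and 8.76-fold (8.18 to 9.39) higher with BMP4. The homeodomain gene Cux1 was 2.94-fold (2.17 to 3.99) lower and 3.34-fold (3.16 to 3.53) higher, and Ctnnb1, the gene of beta-catenin in Wnt signalling and adhesion, 2.51-fold (1.90 to 3.30) lower and 2.29-fold (2.21 to 2.37) higher. Nfix, a nuclear factor I gene linked to stem cell quiescence, stood at 1121 CPM in quiescent and 2506 CPM in cycling cells of the wildtype library, and at 1021 and 1804 CPM in those of the library labelled APLP1-/-. In culture Nfix was at 230.0 CPM with BMP4, against 80.6 CPM with EGF. It was 2.23-fold (1.97 to 2.53) lower in fresh quiescent cells and 2.85-fold (2.72 to 3.00) higher with BMP4, and in the second fresh library it was lower by less than 2-fold (log2 ratio -0.82). Jmy, an actin nucleator gene, had log2 ratios of -1.16 in the wildtype and 0.66 in the library labelled APLP1-/-, so the fresh libraries differ in its sign.

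The opposite class, higher in fresh quiescent cells and lower with BMP4, included receptor genes of astroglia and an enzyme gene of serine synthesis. Of all genes compared, 1.36% lay in it, and well-counted ones with the largest differences were Gpr37l1, Mical2, Gbp7, AI593442, Grm3, Btbd17 and Psat1. Gpr37l1, a G protein-coupled receptor gene of astroglia (chromosome 1, 135160250 to 135167681), stood at 914 CPM in quiescent and 22.1 CPM in cycling cells of the wildtype library, and at 722 and 21.5 CPM in those of the library labelled APLP1-/-. Culture with BMP4 gave 1.27 CPM and culture with EGF 7.86 CPM. Its fresh ratio was 41.3-fold (16.0 to 152), and it was 6.18-fold (4.00 to 10.0) lower with BMP4. Quiescent cells of the 3 wildtype mice held 804, 781 and 874 CPM, all above the cycling level. Grm3, the metabotropic glutamate receptor gene of astroglia (chromosome 5, 9485236 to 9725352), stood at 1978 CPM in quiescent and 133 CPM in cycling cells of the wildtype library, and at 972 and 32.2 CPM in those of the library labelled APLP1-/-. With BMP4 it stood at 1.85 CPM, against 4.97 CPM with EGF. Its fresh ratio was 14.9-fold (9.96 to 23.4), with 1514, 2201 and 1188 CPM in the quiescent cells of the 3 wildtype mice, and it was 2.69-fold (1.83 to 4.06) lower with BMP4, on 32 counts against 167. Both receptor genes were low in culture, at under 10 CPM in either condition. Psat1, an enzyme gene of serine synthesis, stood at 199.9 CPM in quiescent and 83.0 CPM in cycling cells of the wildtype library, and at 146 and 39.4 CPM in those of the library labelled APLP1-/-. The BMP4 culture held 51.5 CPM of Psat1 and the EGF culture 233 CPM. It was 2.41-fold (1.40 to 4.45) higher in fresh quiescent cells and 4.52-fold (4.22 to 4.85) lower with BMP4, and its neighbours in the pathway had log2 ratios of 1.80 and -1.63 for Phgdh, on 26 and 2 fresh counts, and of 1.92 and -0.70 for Psph. Mical2, an actin-oxidising enzyme gene, had a fresh ratio of 8.05-fold (3.05 to 30.1) and was 5.86-fold (4.91 to 7.04) lower with BMP4, and Gbp7, a GTPase gene of the interferon response, had 16.4-fold (4.43 to 138) and was 3.52-fold (2.71 to 4.64) lower. AI593442 and Btbd17 had fresh ratios of 7.59-fold (4.05 to 16.0) and 10.7-fold (3.57 to 52.9) and were 3.12-fold (2.51 to 3.90) and 2.50-fold (2.21 to 2.85) lower with BMP4.

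**Figure D4:**
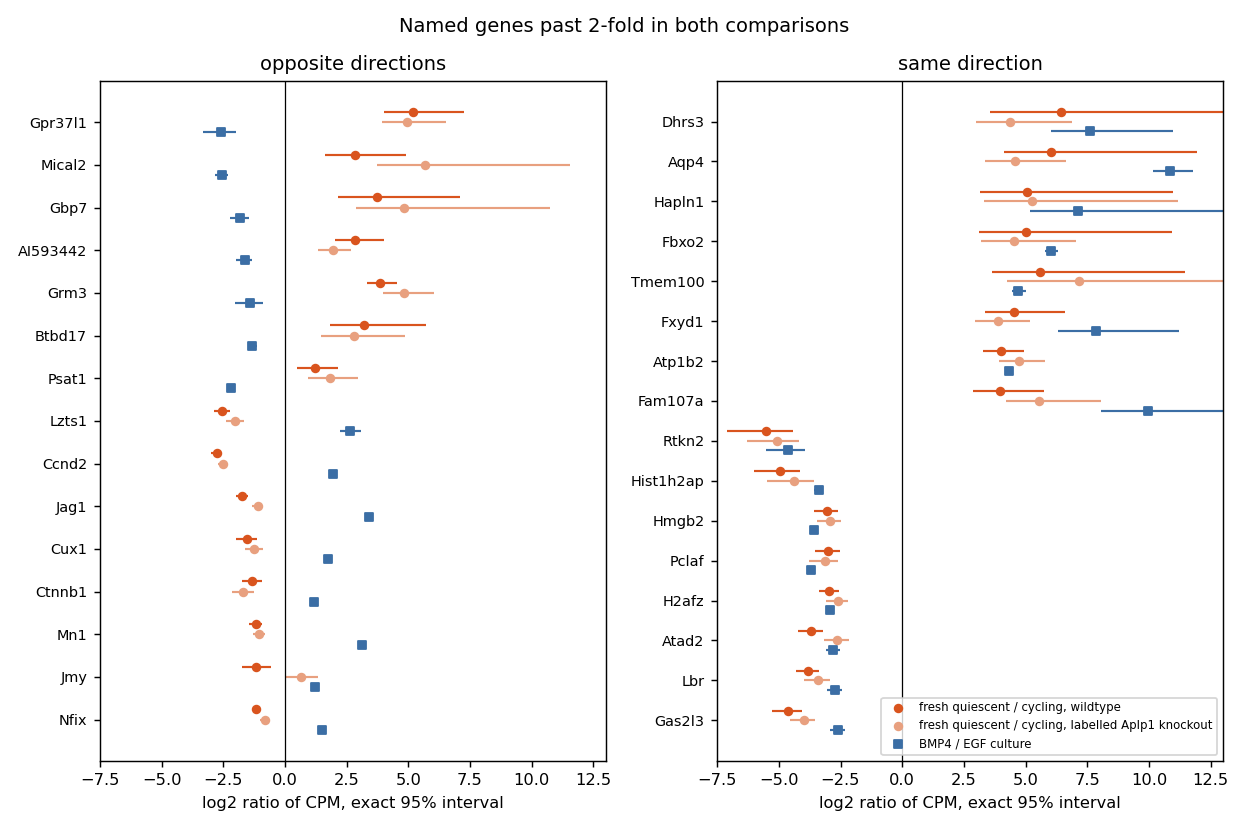
Log2 ratios of CPM with exact 95% counting intervals for the named genes past 2-fold in both comparisons, in fresh quiescent to cycling wildtype cells (dark orange), the same in the fresh library labelled APLP1-/- (light orange) and BMP4 to EGF culture (blue); intervals that reach past the right edge are open there. On the left the wildtype fresh and culture points lie on opposite sides of 0, as for Gpr37l1 (5.20 and -2.60) and Jag1 (-1.75 and 3.40). The point of Jmy in the library labelled APLP1-/- (0.66) lies on the culture side. On the right the points lie on the same side.

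Transcription factor genes of stem cells were mixed in both settings. Of 28, 13 were higher and 4 lower in fresh quiescent cells and 12 were higher and 1 lower with BMP4, 7 of them higher in both (medians 0.85 and 0.83). Shares over all genes were 32.5% higher and 19.2% lower in fresh quiescent cells, 20.6% and 10.7% with BMP4, and 13% higher in both. Sox9, a factor of glia and stem cells, stood at 8575 CPM in quiescent and 1847 CPM in cycling cells of the wildtype library, and at 8416 and 2345 CPM in those of the library labelled APLP1-/-. In culture Sox9 was at 129.7 CPM with BMP4, against 122 CPM with EGF. Its fresh ratio was 4.64-fold (4.15 to 5.20) and its culture ratio 1.06 (1.01 to 1.12), so it differed in fresh cells and hardly in culture. Tsc22d3, a glucocorticoid target gene, had 12.6-fold (4.81 to 46.7) and 1.52-fold (1.38 to 1.68). Rorb and Gli3 were higher in both, with log2 ratios of 1.60 and 1.13 for Rorb and of 1.85 and 2.28 for Gli3, a mediator of hedgehog signalling. Hopx, a marker of quiescent stem cells in several tissues, had 43 quiescent and 0 cycling counts, at least 4.71-fold higher, and a culture log2 ratio of 1.46. The nuclear factor I genes differed from one another in culture. Nfia had log2 ratios of -0.86 in fresh cells and 0.69 in culture, Nfib of -1.23 and -1.15, and Nfix of -1.16 and 1.51.

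Most surface and matrix genes were higher in each resting state, yet single members differed widely in size. In fresh quiescent cells 16 of 24 were higher and 0 lower, beside 32.5% and 19.2% of all genes. With BMP4 13 were higher and 2 lower, beside 20.6% and 10.7% (medians 1.62 and 1.58). Ncan, the matrix proteoglycan neurocan, stood at 3379 CPM in quiescent and 1682 CPM in cycling cells of the wildtype library, and at 2666 and 1027 CPM in those of the library labelled APLP1-/-. Culture with BMP4 gave 15775 CPM and culture with EGF 288 CPM. It had a fresh ratio of 2.01-fold (1.78 to 2.28) and a culture ratio of 54.7-fold (53.6 to 55.8). The tetraspanin gene Cd9 had 2.03-fold (1.28 to 3.40) and 9.38-fold (8.97 to 9.81). Sdc4, a cell surface proteoglycan gene, ran the other way in size, at 6874 CPM in fresh quiescent and 619.5 CPM in fresh cycling cells, a ratio of 11.1-fold (9.19 to 13.5), with a culture ratio of 1.59-fold (1.51 to 1.67). So did the membrane glycoprotein gene Gpm6a, at 9.37-fold (6.19 to 14.9) and 1.52-fold (1.46 to 1.58). Vcam1, an adhesion molecule of quiescent stem cells, had 58 quiescent and 0 cycling counts, at least 6.35-fold higher, and a culture log2 ratio of 2.74. Thbs4, a secreted matrix protein gene, had log2 ratios of 1.60 in fresh cells, on 41 and 4 counts, and -3.01 in culture.

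The APP family and CPEB list holds genes of the proteins that the series is about. In fresh quiescent cells 7 of 12 were higher and 1 lower, beside 32.5% and 19.2% of all genes. With BMP4 6 were higher and 0 lower, beside 20.6% and 10.7% (medians 1.45 and 0.96). Aplp1 itself stood at 336 CPM in fresh quiescent and 38.7 CPM in fresh cycling wildtype cells, with 189, 355 and 259 CPM in the quiescent cells of the 3 mice. It stood at 22.6 CPM with BMP4 against 14.8 CPM with EGF, and its ratios were 8.68-fold (4.13 to 21.9) and 1.52-fold (1.33 to 1.74). In the library labelled APLP1-/- it stood at 102 CPM in quiescent cells and had 0 counts in cycling cells, so it is not at 0 in the library with this label. The sources used here do not say whether these reads lie in the deleted part. Cpeb4, which binds the cytoplasmic polyadenylation element, stood at 422 CPM in quiescent and 99.6 CPM in cycling cells of the wildtype library, and at 328 and 53.7 CPM in those of the library labelled APLP1-/-. With BMP4 it stood at 44.6 CPM, against 25.5 CPM with EGF. Its ratios were 4.24-fold (2.62 to 7.27) and 1.75-fold (1.59 to 1.93). Its relatives Cpeb1 and Cpeb3 were higher in both, with log2 ratios of 2.88 and 1.02 for Cpeb1 and of 2.32 and 2.80 for Cpeb3. App was level in fresh cells and higher with BMP4, with log2 ratios of 0.08, on 30 and 9 counts, and 2.80. Bace1, the beta secretase gene, had -0.38 and 1.15.

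Some well-counted genes were past 4-fold in one comparison and less than 25% apart in the other, by the wildtype library. There were 22 such genes higher and 1 lower in fresh cells, and 5 higher and 1 lower in culture. The fresh side was led by Rgcc, Kcnk1, Vcl, Mid1ip1 and Fjx1. Rgcc, a regulator of the cell cycle, had 110 quiescent and 0 cycling counts, at least 12.0-fold higher, and held 43.3 CPM with BMP4 against 53.2 CPM with EGF. Mid1ip1, which promotes fatty acid synthesis, had ratios of 23.7-fold (7.99 to 116) in fresh cells and 1.16 (1.10 to 1.23) in culture, and Fjx1, a secreted protein gene, 16.6-fold (7.56 to 45.7) and 1.16. Counts of Vcl correlated above 0.8 with those of Ap3m1. Tmsb4x, an actin-binding peptide gene, was the 1 lower gene, 5.88-fold (4.61 to 7.53) lower in fresh quiescent cells with a culture ratio of 1.19 (1.18 to 1.19). On the culture side, Atxn1, the ataxin gene, stood at 845 CPM in quiescent and 774 CPM in cycling cells of the wildtype library, and at 899 and 845 CPM in those of the library labelled APLP1-/-. The BMP4 culture held 86.6 CPM of Atxn1 and the EGF culture 1.93 CPM. It had a fresh ratio of 1.09 (0.902 to 1.33) and a culture ratio of 44.8-fold (34.9 to 58.3). Fos, Gadd45g and Oxct1 had culture ratios of 13.2-fold (12.5 to 14.0), 5.04-fold (4.67 to 5.44) and 4.01-fold (3.82 to 4.22), and Fam81a was 5.16-fold (4.22 to 6.36) lower with BMP4. In the library labelled APLP1-/-, however, Fos and Gadd45g were 3.48-fold (2.97 to 4.10) and 2.85-fold (2.00 to 4.16) higher in quiescent cells, so that these 2 were less than 25% apart in the wildtype library alone.

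The ends of each ranking were then looked up in the other setting. Of the 50 genes with the largest BMP4 ratios (500 or more culture counts), 39 are listed in the fresh table and 19 had enough fresh counts to compare. Of the 50 with the largest ratios toward EGF, 41 are listed and 7 could be compared. Many of these reached the minimum through 1 class of cells alone, as Scrg1 did with 72 quiescent and 0 cycling counts, so no count of their directions is given. From the fresh side, of the 50 genes with the largest ratio toward quiescent cells (100 or more fresh counts), 48 could be compared and 33 were higher and 1 lower with BMP4. Of the 50 with the largest ratio toward cycling cells, 49 could be compared and 31 were lower and 2 higher with BMP4. Over all compared genes with 100 or more fresh counts, 25.7% were higher with BMP4 and 9.75% lower. Both fresh rankings rest on the contrast by which the cells were chosen. Several of the strongest BMP4 genes had almost no fresh counts. Caln1 had 2797 counts with BMP4, Ccdc3 2803 and Bgn 625, and each had 0 counts in fresh quiescent and cycling cells. Pcp4 had 7155 counts with BMP4 and 1 in fresh quiescent cells, and Diras2 5333 and 1. Since genes that every cell uses are also at or near 0 in the fresh table, these zeros set no limit on expression. Mmd2 and Scrg1 were found in both, with 3417 and 5256 counts with BMP4 and with 1075 and 72 in fresh quiescent cells.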

How the data were processed

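Single-cell RNA was measured with 10x 3′ libraries of 2 fresh and 2 cultured samples of subventricular zone cells. Fresh libraries were sequenced with 150 bp and cultures with 100 bp paired-end reads, per the labels. The counts per gene and cell were used as deposited by the authors, and no normalized value of theirs was used. Bowtie2, SAMtools, Cell Ranger and the build mm10 are named in the submitters' processing notes, without versions or roles. The sources used here do not say whether the counts are reads or molecules or whether strand was used, so overlapping genes, antisense genes and near-identical copies are uncertain. Filters on cells before deposit are not given either. No cells were removed here, and doublets and free RNA were not treated.

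Counts were summed over the cells of each class and divided by the class total (CPM). Log2 ratios add a pseudocount of 0.5 counts to each side, and a gene past 2-fold on that scale was counted as higher or lower. Genes needed 20 or more fresh and 10 or more culture counts. Ratios carry exact 95% intervals of 2 Poisson counts, and a gene at 0 on one side is given against a floor of 3 counts per class. Intervals and floors cover counting error only. No test was made, since each condition is 1 library and the fresh classes were cut from the same counts.

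Cells were given to a mouse where hashtag counts were 10 or more and 75% or more came from the same tag, and values by mouse are given for classes of 10 or more cells. The genes in the text are the 8 of largest shared difference in each direction class, the 5 of largest difference past 4-fold in one comparison and less than 25% apart in the other, and in each list the 2 members at either end of the fresh minus culture difference, all with 100 or more counts in each comparison. Other members of the lists, given mostly as log2 ratios, were chosen after their values were seen. Some genes that the rule names are not reported here. Cells, genes and lists were chosen with earlier results of these data known. Positions are those of RefSeq on GRCm38.p6, matched by symbol, and 99.0% of fresh and 98.7% of culture gene IDs came with a symbol.

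Python 3.11.15, numpy 2.4.6, pandas 2.3.3 and SciPy 1.17.1 were used, and edgeR 4.0.16 in R 4.3.3 for TMM factors only. The steps were tested on simulated data. The alternatives were other count minimums, a pseudocount of 2, CPM of the shared genes, TMM factors, stricter marker counts, cells of 300 to 1500 counts, cells without markers of other types, the library labelled APLP1-/-, culture cells split by cycle counts, lists or gene pairs left out, and a 3-fold limit. The remaining libraries of the series were not used here.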

Additional observations from a re-analysis of the deposited data

Results flagged for a closer look

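Of the 31 named genes past 2-fold in both comparisons, 13 are listed here. Their fresh ratio was past 2-fold the same way in both fresh libraries, and their culture ratio was past 2-fold the other way. The difference between the settings was not tested, since each culture condition is 1 library.

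Toward fresh quiescent cells, the fresh minus culture difference in log2 ratio was 7.80 for Gpr37l1, 5.53 for Gbp7, 5.39 for Mical2, 5.28 for Grm3, 4.53 for Btbd17, 4.49 for AI593442 and 3.40 for Psat1. Toward BMP4 culture it was -5.18 for Lzts1, -5.14 for Jag1, -4.70 for Ccnd2, -4.32 for Mn1, -3.30 for Cux1 and -2.52 for Ctnnb1.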

How the results depend on the processing

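Of 150 values recomputed for the shares, the correlation and the list counts, 140 were within 1.5 times the reported ones (within 0.05 for the correlation) and 10 were not. Some of the 140 could not change. TMM factors and CPM of the shared genes shift all log2 ratios alike and leave the correlation as it was. A 3-fold limit touches neither the correlation nor the list counts. The correlation was 0.549 with a minimum of 50 fresh counts and 0.588 with 100, and ranged between 0.465 and 0.588 over all alternatives. Fewer genes are compared under these minimums.

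The number of lists with medians of opposite sign, 4 as reported, was 1 with a minimum of 100 counts, 2 with the minimum taken over the whole wildtype library and 2 in the library labelled APLP1-/-. The cause was not tested. With a 3-fold limit, which by construction passes fewer genes, 9.97% were lower in fresh quiescent cells, 11.0% were higher and 5.12% lower with BMP4, 9.33% were past it in the same direction and 0.944% in opposite directions. Over all alternatives, 9.33% to 23.2% of genes were past the limit in the same direction and 0.944% to 3.12% in opposite ones.

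The fresh log2 ratio of Jmy was 0.66 in the library labelled APLP1-/-, with the sign reversed. Of the other values of the 31 named genes, 289 lay within the counting interval of the reported ratio and 51 outside it without a change of sign. These intervals are wide where a class has few counts: the fresh log2 ratio of Dhrs3 was 6.46, against 4.47 with a pseudocount of 2 and 4.37 in the library labelled APLP1-/-. Depth limits the fresh side: 182 of the 4553 genes had 0 counts in one fresh class, against 4 in culture. No paired analysis was possible because the 3 tagged wildtype mice, which the fresh classes share, gave only 4, 6 and 5 tagged cycling cells, under the minimum of 10, and each culture condition is 1 library.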
